A study of Mus musculus with 39 samples.

Results

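Gene expression was compared between old and young macrophages sorted from the lungs of mice with bleomycin-induced fibrosis that had received saline. The comparison covered 10 of the 39 RNA-seq libraries of the study, 5 from old and 5 from young mice, and 12171 of the 43430 genes of the count table passed the filter on low counts. The cells are labelled Siglec F-low alveolar macrophages, and the series text calls them monocyte-derived. All mice were C57BL/6J. Mice of the macrophage groups had received bleomycin, which damages the alveoli and is followed by scarring, and cells were collected 21 days later. Treatment, either saline as vehicle or ISRIB, was injected into the peritoneum daily from day 7. ISRIB is a small molecule that blunts the integrated stress response, in which several stress kinases slow protein synthesis through the initiation factor eIF2. Ages differ between the sources: young mice were 8 to 12 weeks and old mice over 18 months old by the labels, but 3 to 5 and 18 to 24 months old by the series text. Here they are named young and old only. Further groups used below are old (5 libraries) and young (4 libraries) macrophages from bleomycin mice given ISRIB, and lung monocytes of old and young naive mice given saline (5 libraries each). All macrophages compared came from injured lungs, so age and the response to bleomycin cannot be told apart here. The labels name no batch and do not say how many mice a library holds. If libraries are not separate mice, the p-values measure only the spread between these samples, which may be technical.

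After lung injury, circulating monocytes enter the alveoli and turn into alveolar macrophages over weeks, losing monocyte genes and gaining those of resident cells. While they do so they make matrix proteins, growth factors and lipid-handling proteins, and in mice their presence is tied to fibrosis. Like other macrophages they switch on cytokine and chemokine genes through the transcription factor NF-kB, which also induces its own inhibitors, so that such feedback genes rise when the pathway is active.

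Macrophage genes were high in every library of both ages. Among them were Lyz2, the lysozyme of myeloid cells, with 33171 to 38526 counts scaled to a common library total (CPM) in young and 42106 to 56541 CPM in old libraries, and Itgax, an integrin of alveolar macrophages, with 1658 to 1878 and 1954 to 2209 CPM. Siglecf, the sorting marker that mature alveolar macrophages carry, was low at 46.8 to 58.8 CPM in young and 51.5 to 120 CPM in old libraries. Library totals ran from 6069978 to 16056708 counts in young and from 7565556 to 10633748 counts in old mice. On the first principal component, which held 23.01% of the variance of the 10 libraries, old libraries 3 and 5 lay at 40.4 and 46.0 and the other old libraries between -1.32 and 9.08. Results are therefore also given without these 2 libraries, a choice made after seeing the data. CPM beside single genes below are scaled with TMM factors, values of the 5 libraries of a group stand in the order of their label numbers, log2 changes are old over young with their standard error (SE), and adjusted p is that of edgeR's quasi-likelihood test after Benjamini-Hochberg adjustment over all genes. A gene is called when its adjusted p is under 0.05.

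Of the 12171 genes, 141 (1.16%) were called, 114 higher (0.937%) and 27 lower (0.222%) in old macrophages. In 107 of the 141 the old and young libraries did not overlap, beside 347 genes (2.85%) among all tested, 205 with the old libraries higher (1.68%) and 142 with the young libraries higher (1.17%). The rises were on the whole larger than the falls: 61 called genes rose by at least 1 on the log2 scale and 9 fell by at least that much. Low genes were found only among the rises: 16 called rises and 0 called falls had a mean under 5 CPM in both groups. Without old libraries 3 and 5, 28 of 12322 genes were called, 24 higher (0.195%) and 4 lower (0.0325%), and 23 of these were among the 141. Leaving out 1 library at a time gave from 47 calls (without old library 5) to 289 calls (without old library 2). The count was also lower by over 1.5 times without old library 3 (64) and without young library 1 (80), 2 (80), 3 (77) or 4 (54). In all 10 of these fits 38 of the 141 genes stayed called, 30 higher and 8 lower.

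**Figure D1:**
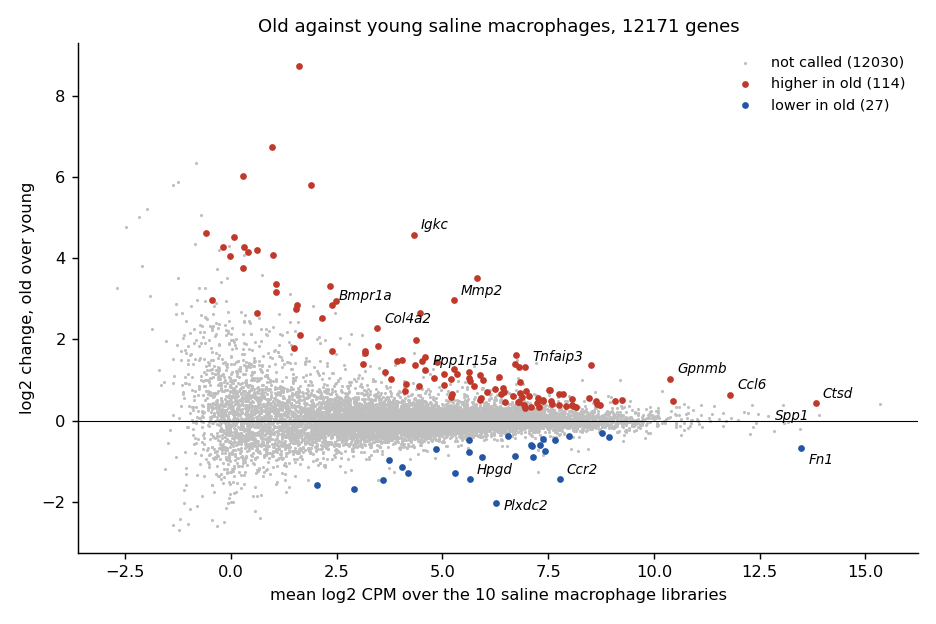
Log2 change between old and young saline macrophages (vertical axis) against the mean log2 CPM over the 10 libraries (horizontal axis) for the 12171 genes tested. Red points are the 114 genes called higher and blue points the 27 genes called lower in old mice; called changes run from -2.03 for Plxdc2 to the rises of low genes at the upper left, whose fitted size depends on the prior count.

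Inflammatory genes and the feedback inhibitors of NF-kB were the list with the most called rises among 28 lists of genes. Of its 41 members tested, 8 were called higher (19.5%, beside 0.937% of all genes tested) and none lower. A log2 change above 0 was found in 34, and the median log2 change was 0.50, beside 0.0041 over all genes tested. The 8 were the feedback genes Tnfaip3, Nfkbia and Nfkbiz, the cytokine gene Il1a, the chemokine genes Cxcl2, Ccl3 and Ccl6, and Tnfaip2, a gene induced by tumour necrosis factor. Without old libraries 3 and 5 the median was 0.47 and 2 members, Tnfaip3 and Il1a, stayed called. In the macrophages of ISRIB-treated mice the median was 0.16 and 2 members were called higher.

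The promoters of the feedback and chemokine genes are shown for the letters they share. Of the 8 called members, 7 have an entry in the RefSeq promoter table (build GRCm38.p6), and the 250 bases before the first listed start were searched on both strands for the NF-kB consensus motif. Tnfaip3, Nfkbia and Cxcl2 held it, against 3.75% of all 27025 promoters of the same length and 4.25% of those of 9344 tested genes, and 4 did not. The AP-1 motif TGANTCA was present in 2 of the 7, Tnfaip3 and Il1a, and in 6.87% of all promoters. A match is a stretch of letters and not a shown binding site. Each stretch below is written 5′ to 3′ on the strand of its gene, is trimmed where the GENCODE annotation places an exon, and has the NF-kB matches in capitals. They lie at chr10:19015411-19015547 (minus strand), chr12:55492648-55492897 (minus strand) and chr5:90903649-90903870 (plus strand) in turn.
Tnfaip3: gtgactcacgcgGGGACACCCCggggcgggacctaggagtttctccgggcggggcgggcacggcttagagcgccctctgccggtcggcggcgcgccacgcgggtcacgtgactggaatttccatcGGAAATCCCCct
Nfkbia: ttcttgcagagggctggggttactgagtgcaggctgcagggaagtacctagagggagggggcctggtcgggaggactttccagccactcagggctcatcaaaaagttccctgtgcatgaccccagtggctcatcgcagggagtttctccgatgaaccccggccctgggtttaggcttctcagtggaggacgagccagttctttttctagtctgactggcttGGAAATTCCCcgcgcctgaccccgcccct
Cxcl2: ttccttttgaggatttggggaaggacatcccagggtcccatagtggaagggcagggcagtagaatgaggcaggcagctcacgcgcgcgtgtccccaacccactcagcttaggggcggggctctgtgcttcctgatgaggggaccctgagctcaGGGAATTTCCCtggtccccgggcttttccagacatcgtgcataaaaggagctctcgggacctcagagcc
RefSeq lists 2 starts for Tnfaip3, and the stretch shown lies inside the interval that GENCODE gives the gene. In Nfkbia the match lies from 29 to 20 bases before the start, and in Cxcl2 a pair of overlapping matches begins 97 bases before it.

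Tnfaip3 (ENSMUSG00000019850, chromosome 10, 19000910 to 19015657, minus strand) encodes a ubiquitin-editing enzyme that shuts off NF-kB signalling. Young libraries held 71.0, 79.2, 72.3, 62.2 and 67.6 CPM and old libraries 119, 167, 150.3, 206 and 243 CPM. Every old library was above every young library, with the most in old libraries 4 and 5. Its mean was 70.5 ± 6.23 CPM (SD, n = 5) in young and 177 ± 48.3 CPM (SD, n = 5) in old mice, 2.51-fold, a log2 change of 1.33 ± 0.20 (SE) with an adjusted p of 9.79e-04. It stayed called without any single library (adjusted p at most 0.00659) and without old libraries 3 and 5 (log2 change 1.21, adjusted p 0.0119).

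Nfkbia (ENSMUSG00000021025, chromosome 12, 55489410 to 55492647, minus strand) encodes the inhibitor that holds NF-kB in the cytoplasm. It was at 84.9, 91.6, 84.9, 91.8 and 119.8 CPM in young and 117, 163, 134, 192 and 183 CPM in old libraries. The groups overlapped at young library 5 and old library 1, and the log2 change was 0.73 ± 0.15 (adjusted p 0.016). That call was undone by leaving out old library 5 or young library 1, 3 or 4, with adjusted p of at most 0.0577, or old libraries 3 and 5 together (0.076). Nfkbiz, which encodes a nuclear relative of these inhibitors and is named outside the rule for naming genes, averaged 25.3 CPM in young and 55.8 CPM in old macrophages without overlap (log2 change 1.15 ± 0.28, adjusted p 0.0332), and it stayed called in 3 of the 10 fits that leave out a library.

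Il1a, the gene of interleukin-1 alpha (ENSMUSG00000027399, chromosome 2, 129299610 to 129309972), was at 34.8, 29.1, 23.1, 33.98 and 29.1 CPM in young and 50.6, 93.2, 52.7, 64.1 and 84.1 CPM in old libraries. All old libraries exceeded all young ones. The log2 change was 1.20 ± 0.21 (2.30-fold, adjusted p 0.00705), and the gene stayed called without any single library (at most 0.029) and without old libraries 3 and 5 (1.21, adjusted p 0.0326). It missed the threshold when all 39 libraries entered 1 fit (adjusted p 0.222).

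The neutrophil-attracting chemokine gene Cxcl2 (ENSMUSG00000058427, chromosome 5, 90903871 to 90905938) was at 75.3, 65.1, 46.4, 37.1 and 38.6 CPM in young and 107, 153, 138, 141 and 264 CPM in old libraries. No old library was as low as a young one, and old library 5 was the highest. The rise of 3.08-fold (log2 change 1.62 ± 0.35) had an adjusted p of 0.0195. Ccl3, which encodes a chemokine that attracts monocytes and lymphocytes, was at 22.5, 25.3, 27.6, 18.1 and 20.3 CPM in young and 41.4, 29.7, 66.5, 46.7 and 89.6 CPM in old libraries. Its groups were close at old library 2 but did not overlap, and the log2 change was 1.27 ± 0.27 (adjusted p 0.0172). For both, the log2 change stayed above 0 without any single library while the adjusted p crossed 0.05. Cxcl2 was no longer called without old library 5 or young library 3 or 4 (adjusted p at most 0.0795), and Ccl3 without old library 3 or 5 or young library 4 (at most 0.0759). Leaving out old libraries 3 and 5 together gave log2 changes of 1.36 for Cxcl2 (adjusted p 0.14) and 0.78 for Ccl3 (0.261).

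Ccl6, a CC chemokine gene of rodents, had nearly equal values among young libraries (2906, 2659, 2759, 2809 and 2763 CPM) and 3653, 3948, 4989, 3586 and 5446 CPM in old libraries. Every old library was higher, by a log2 change of 0.64 ± 0.13 (adjusted p 0.0144). Tnfaip2 averaged 500.1 ± 55.1 CPM in young and 707 ± 92.0 CPM in old mice (SD, n = 5 each), a log2 change of 0.50 ± 0.11 (adjusted p 0.018). Without old library 3 or 5 neither was called (adjusted p of at most 0.0595 for Ccl6 and 0.0617 for Tnfaip2), nor was Tnfaip2 without young library 2 or 4 (at most 0.072). With both old libraries 3 and 5 left out, the adjusted p was 0.2 for Ccl6 and 0.171 for Tnfaip2. Ccrl2, which encodes an atypical receptor that binds chemerin and belonged to the list of chemokine and growth factor receptors, rose 2.50-fold from 64.2 ± 11.8 to 159.9 ± 35.5 CPM (SD, n = 5 each) with no overlap. Its log2 change was 1.32 ± 0.28 (adjusted p 0.0155), not called without old library 5 (0.0577), without young library 4 (0.0566) or without old libraries 3 and 5 (0.114).

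**Figure D2:**
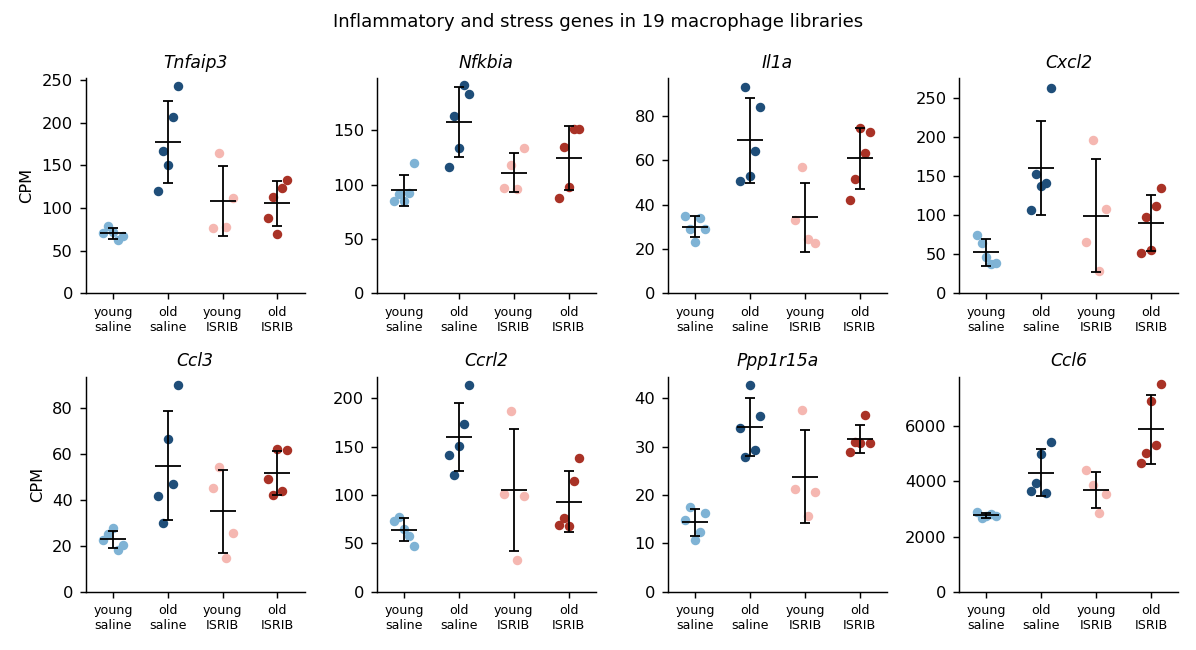
CPM of 8 inflammatory and stress genes in each of the 19 macrophage libraries, with a horizontal mark and bars for the mean and SD of each group. Tnfaip3 lies between 119 and 243 CPM in old and between 62.2 and 79.2 CPM in young saline libraries, whereas the old and young ISRIB libraries overlap.

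Immediate early genes, which cells transcribe within minutes of a stimulus, were shifted upwards with few single calls. Of 35 tested, 33 had a log2 change above 0, with a median of 0.53, and 22 had an unadjusted p under 0.05 in the upward direction, beside 7.91% of all genes tested (4.78% in the downward direction). Called were 3 (8.57%, beside 0.937% of all genes tested called higher): Maff, a small bZIP factor (23.3 ± 5.84 to 42.6 ± 11.2 CPM, SD, n = 5 each), the kinase gene Sgk1 (1159.8 ± 123 to 1619.9 ± 249.7 CPM) and the GTPase gene Rhob (179.6 ± 25.2 to 282 ± 61.3 CPM). Their log2 changes were 0.88 ± 0.20, 0.48 ± 0.11 and 0.65 ± 0.16, with adjusted p of 0.0231, 0.0266 and 0.044. None of the 3 stayed called without old library 3, without old library 5 or without both (adjusted p 0.327 for Maff, 0.2 for Sgk1 and 0.364 for Rhob with both left out). The call was also lost for Maff without young library 2, 4 or 5 (at most 0.0958), for Sgk1 without old library 4 or young library 2, 3, 4 or 5 (at most 0.128), and for Rhob without old library 1 or any young library (at most 0.143). Without old libraries 3 and 5 the list's median was 0.26 with 27 members above 0. In ISRIB-treated mice it was -0.05 with 16 of the 35 above 0.

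Among 37 genes of the integrated stress response, 3 were called higher (8.11%, beside 0.937% of all genes tested). The median log2 change was 0.11, with 23 above 0. The median was 6.9e-05 without old libraries 3 and 5, with 19 above 0. Ppp1r15a (ENSMUSG00000040435, chromosome 7, 45522916 to 45526268), which encodes the phosphatase subunit that reverses eIF2 phosphorylation, was at 14.9, 17.5, 10.7, 12.4 and 16.2 CPM in young and 33.8, 27.9, 42.9, 29.3 and 36.4 CPM in old libraries. The groups were well apart. It rose 2.37-fold (log2 change 1.25 ± 0.19, adjusted p 9.79e-04) and kept its call without any single library (at most 0.00659) and without old libraries 3 and 5 (1.07, adjusted p 0.0326). Atf5, a bZIP factor gene of this response, was at 3.61, 1.16, 6.24, 4.43 and 8.05 CPM in young and 7.13, 7.87, 20.2, 12.1 and 16.5 CPM in old libraries, and Gdf15, a stress cytokine gene, at 12.3, 15.4, 13.8, 8.42 and 10.96 and at 32.5, 14.4, 61.6, 14.7 and 42.9 CPM. Both groups overlapped for each gene, and their adjusted p of 0.044 and 0.0464 passed 0.05 only with nearly all libraries present: leaving out any library but old 1, old 2 or young 5 undid the call of Atf5, and any but old 2 or old 4 that of Gdf15 (at most 0.141 and 0.158; 0.438 and 0.523 without old libraries 3 and 5). Atf4, the central factor of the response, averaged 99.2 ± 12.0 CPM (SD, n = 5) in young and 123 ± 11.6 CPM (SD, n = 5) in old mice (log2 change 0.31 ± 0.11, adjusted p 0.207), and Hspa5, a chaperone gene of the endoplasmic reticulum, 891 ± 138 and 1053 ± 190.3 CPM (0.24 ± 0.12, adjusted p 0.388). None of the 29 genes of the chaperone and unfolded protein response list, Hspa5 among them, was called.

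Of 27 genes of mature alveolar macrophages tested, 4 were called higher in old mice (14.8%, beside 0.937% of all genes tested), Krt79, Bhlhe41, Fabp4 and Siglecf, and none lower. The log2 change was above 0 in 24 of the 27, with a median of 0.39. Krt79, a keratin gene, was at 6.89, 5.52, 5.54, 2.71 and 8.96 CPM in young and 8.75, 9.81, 99.5, 14.04 and 59.8 CPM in old libraries, so that 2 of the old libraries carried the rise (log2 change 2.66 ± 0.54, adjusted p 0.0144). Without them the log2 change was 0.81 with an adjusted p of 0.511, and the call was also undone by leaving out old library 3 (0.0611), old library 5 (0.0518) or young library 4 (0.0566). Siglecf had the same pattern, with 55.4, 83.1, 117, 54.2 and 103 CPM in old against 49.5, 49.7, 50.9, 57.8 and 45.5 CPM in young libraries (log2 change 0.71 ± 0.17, adjusted p 0.0308). Its log2 change was 0.34 without old libraries 3 and 5, and it lost its call without either of them or any young library (at most 0.128).

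Bhlhe41 and Fabp4 were spread more evenly. Bhlhe41, a repressor that maintains alveolar macrophage identity, was at 177, 199.7, 180.4, 126 and 163 CPM in young and 287, 199.8, 231, 339 and 270.4 CPM in old libraries, meeting at old library 2 (log2 change 0.65 ± 0.14, adjusted p 0.0164). Fabp4, a fatty acid carrier of these cells, was at 47.2, 25.4, 43.5, 39.1 and 35.7 CPM in young and 60.3, 80.2, 47.7, 75.8 and 80.7 CPM in old libraries (0.85 ± 0.20, adjusted p 0.0256). Without old libraries 3 and 5 the log2 changes were as large, 0.69 and 0.91, with adjusted p of 0.0535 and 0.0702. Bhlhe41 was not called without old library 4 or 5 or young library 4 (at most 0.0675), nor Fabp4 without old library 4 or 5 or young library 2, 3, 4 or 5 (at most 0.0958). The whole list had a median of 0.17 without old libraries 3 and 5, with 19 of 27 above 0.

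There were fewer called falls than rises, and 3 of the 27, Plxdc2, Hpgd and Fcrls, stayed called without old libraries 3 and 5. Plxdc2 (ENSMUSG00000026748, chromosome 2, 16356304 to 16755839), which encodes a membrane protein with a plexin domain, had the smallest p of all genes. It was at 132, 116, 114, 147 and 112 CPM in young and 28.2, 42.7, 18.96, 49.5 and 13.5 CPM in old libraries. Old libraries 3 and 5 were the lowest, and even the highest old library lay far under the lowest young one. Its log2 change was -2.03 ± 0.23 (4.10-fold lower, adjusted p 3.25e-05), at most 3.41e-04 without any single library. Hpgd (ENSMUSG00000031613, chromosome 8, 56294585 to 56321043), the gene of the enzyme that inactivates prostaglandins, was at 78.4, 90.4, 74.9, 63.5 and 59.6 CPM in young and 34.5, 29.9, 25.3, 18.3 and 25.9 CPM in old libraries. The groups were again apart (log2 change -1.45 ± 0.21, 2.73-fold lower, adjusted p 9.79e-04), and without old libraries 3 and 5 the change was -1.41 (adjusted p 0.0201). Hpgd missed the threshold in 1 alternative setting of the processing (adjusted p 0.0552).

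Ccr2 and Cx3cr1, the receptors for CCL2 and fractalkine that mark classical and patrolling monocytes, were both lower. Ccr2 was at 304, 331, 279, 445 and 239 CPM in young and 157, 196, 71.8, 98.1 and 63.1 CPM in old libraries, and Cx3cr1 at 172, 181, 160.0, 261 and 139 and at 118, 116, 65.6, 109 and 77.2 CPM. Neither gene overlapped between ages, and old libraries 3 and 5 were the lowest for both. The log2 changes were -1.45 ± 0.27 (adjusted p 0.00841) and -0.91 ± 0.19 (adjusted p 0.0145). With old libraries 3 and 5 left out they were -1.09 and -0.68, not called (0.0712 and 0.164), and Cx3cr1 was also lost without old library 5 (0.0571) or young library 4 (0.0675). Ccr2 was the 1 called member among 25 monocyte genes (4%, beside 1.16% of all genes tested), whose median log2 change was 0.22 with 15 members above 0.

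Interstitial and resident macrophage genes gave 2 calls among 24 (8.33%, beside 1.16% of all genes tested). Both were lower: Cx3cr1 and Fcrls, which encodes an Fc receptor-like protein of microglia and tissue macrophages. Fcrls was at 72.8, 89.8, 60.9, 101 and 71.3 CPM in young and 51.9, 45.3, 41.0, 33.9 and 39.4 CPM in old libraries. There was no overlap, and the fall of 0.90 on the log2 scale (SE 0.14, adjusted p 0.00193) was called without any single library (at most 0.0136) and without old libraries 3 and 5 (adjusted p 0.0359), but not in a fit of all 39 libraries (0.18). The median of the list was -0.13.

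Further genes were called lower. Tiam1, an activator of the GTPase Rac, was at 26.2, 18.0, 27.7, 23.6 and 18.7 CPM in young and 11.7, 12.5, 6.53, 12.8 and 8.40 CPM in old libraries. All old libraries were lower (log2 change -1.14 ± 0.21, adjusted p 0.00882; -0.89 and 0.0948 without old libraries 3 and 5). Olfm1, which encodes a secreted olfactomedin protein, went from 216 ± 16.9 to 129 ± 26.7 CPM, Gpr171, which encodes a G protein-coupled receptor, from 26.1 ± 2.73 to 10.6 ± 4.51 CPM and Cd86, a costimulatory ligand of T cells, from 57.4 ± 3.78 to 41.6 ± 4.76 CPM (SD, n = 5 each). The log2 changes were -0.74, -1.30 and -0.47, without overlap, and the adjusted p was 0.0225 for Olfm1, 0.0225 for Gpr171 and 0.0256 for Cd86. Each was lost without old library 3, old library 5, young library 1 or young library 4, and Cd86 also without young library 2 or 5 (at most 0.0818 for Olfm1, 0.0809 for Gpr171 and 0.0855 for Cd86; 0.209, 0.189 and 0.231 without old libraries 3 and 5).

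**Figure D3:**
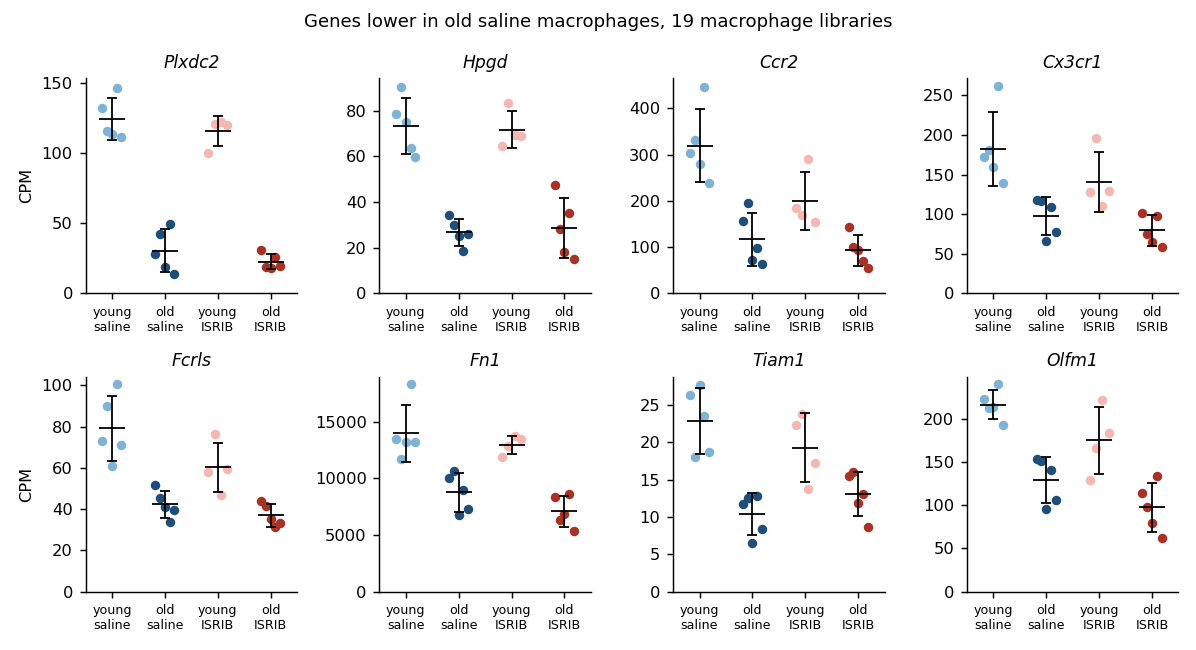
CPM of 8 genes called lower in old saline macrophages, in each of the 19 macrophage libraries, with mean and SD marks. Plxdc2 lies between 13.5 and 49.5 CPM in old and between 112 and 147 CPM in young saline libraries, and the ISRIB libraries of each age sit near the saline libraries of that age for Plxdc2 and Hpgd.

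Profibrotic macrophage genes did not move as a group. Of 28 tested, 1 was called higher and 2 lower (10.7% in all, beside 1.16% of all genes tested), with a median log2 change of -0.02. The rise was in Gpnmb (ENSMUSG00000029816, chromosome 6, 49036546 to 49070929), which encodes a glycoprotein of lysosomes and of lipid-laden macrophages. It was at 873, 989, 818, 749 and 951 CPM in young and 2216, 1093, 1666, 1911 and 2072 CPM in old libraries, with old library 2 close to the young ones. The log2 change was 1.03 ± 0.19 (adjusted p 0.00912; 0.98 and 0.0551 without old libraries 3 and 5). Called lower were Cx3cr1 and Fn1. Fn1 (ENSMUSG00000026193, chromosome 1, 71585520 to 71653200), the gene of the matrix protein fibronectin, was at 13511, 11759, 13196, 18334 and 13247 CPM in young and 10062, 10705, 6736, 8983 and 7331 CPM in old libraries. The groups did not overlap (log2 change -0.68 ± 0.13, adjusted p 0.0103; -0.50 and 0.118 without old libraries 3 and 5).

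Other core genes of fibrotic-lung macrophages were not called. Spp1, the gene of the matrix cytokine osteopontin, was at 12512, 11558, 11590.5, 13015 and 11759.7 CPM in young and 13676, 13406, 6139, 10480.1 and 8559.8 CPM in old libraries. Old libraries 1 and 2 were above all young ones and the others below, and the log2 change was -0.21 ± 0.22 (adjusted p 0.771; 0.045 without old libraries 3 and 5). Trem2, a lipid receptor gene, averaged 353 ± 39.9 and 434 ± 37.5 CPM without overlap (log2 change 0.30 ± 0.13, adjusted p 0.308), and Mmp12, the gene of macrophage elastase, 980.4 ± 155 and 823 ± 325 CPM (-0.25 ± 0.23, adjusted p 0.737) in young and old mice (SD, n = 5 each). Arg1, an arginine-degrading enzyme of alternatively activated macrophages, was at 129, 167, 65.9, 646 and 75.4 CPM in young and 75.8, 268, 14.4, 63.8 and 24.0 CPM in old libraries. One library in each age stood far above the rest (log2 change -1.28 ± 0.65, adjusted p 0.429). Pdgfa, a platelet-derived growth factor gene, averaged 31.95 ± 6.83 and 27.8 ± 4.85 CPM (-0.20 ± 0.20, adjusted p 0.759). Cspg4, a proteoglycan gene, was at 252, 208, 213, 188 and 212 CPM in young and 149, 169, 65.5, 141 and 76.3 CPM in old libraries. The ages did not overlap, while the log2 change of -0.84 ± 0.23 missed the threshold (adjusted p 0.0651).

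Of 37 genes of matrix, proteases and their inhibitors, 4 were called higher (Adam19, Col4a1, Fstl1 and Mmp2) and Fn1 lower. These calls were 13.5% of the list, beside 1.16% of all genes tested, and the list's median was -0.02. Adam19, a membrane metalloprotease gene, was at 9.51, 13.6, 9.54, 13.4 and 10.7 CPM in young and 23.9, 15.9, 34.97, 28.1 and 44.1 CPM in old libraries. All old libraries were higher (log2 change 1.38 ± 0.25, adjusted p 0.00823; 0.99 and 0.11 without old libraries 3 and 5). Fstl1, a secreted glycoprotein gene of the follistatin family, was low, from 0.118 to 1.71 CPM in young and from 2.81 to 23.3 CPM in old libraries (adjusted p 0.0144), and was not called without old library 3 (0.0584) or without old libraries 3 and 5 (0.109). Mmp2, a gelatinase gene, was at 8.85, 13.1, 7.07, 6.00 and 8.36 CPM in young and 36.1, 46.8, 15.9, 222 and 21.8 CPM in old libraries. Old library 4 stood far above the others, and without it the adjusted p was 0.0723 (0.0163 with it; also lost without young library 3, 0.0526, or 4, 0.0626).

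The basement membrane collagen genes Col4a1 and Col4a2 both rose. Col4a2 was at 3.44, 3.98, 5.06, 3.43 and 3.09 CPM in young and 10.5, 9.12, 33.5, 9.45 and 28.3 CPM in old libraries, and Col4a1 at 8.69, 2.70, 5.54, 2.71 and 2.66 and at 8.64, 8.10, 23.004, 10.7 and 17.4 CPM. Old libraries 3 and 5 were the highest for both, and the ages overlapped for Col4a1 only at young library 1. Their log2 changes were 2.27 ± 0.36 (adjusted p 0.00186) and 1.65 ± 0.33 (adjusted p 0.0128). Without old libraries 3 and 5 they were 1.35 (adjusted p 0.045) and 1.07 (0.2), and Col4a1 was also lost without old library 3 alone (0.051). In the annotation the ends of these neighbouring genes overlap (chromosome 8, 11312805 to 11449287 for Col4a2 and 11198423 to 11312826 for Col4a1), and whether reads were counted by strand is not given in the sources used here. Fibroblast marker genes summed to 28.2 to 62.1 CPM in young and 14.9 to 39.5 CPM in old libraries over 21 genes. Gpx3 was the larger part (means 24.8 and 15.2 CPM). Endothelial markers summed to 148 to 230 CPM in young and 199.7 to 266 CPM in old libraries over 13 genes. Most of this was Vwf (means 151 and 189 CPM) and Calcrl (36.8 and 37.8 CPM), so the sum says little of the other endothelial markers. These were low, such as Pecam1 (1.77 and 2.74 CPM) and Cdh5 (0.636 and 3.71 CPM). The part of fibroblast or endothelial RNA in the rise was not tested.

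Lysosomal genes gave 1 call among 64 (1.56%, near the 1.16% of all genes tested), with 47 above 0 and a median of 0.10. Ctsd, the gene of the protease cathepsin D, was at 12607, 12085, 12365, 11886 and 12646 CPM in young and 17992, 15102, 15243, 18305 and 16464 CPM in old libraries, without overlap (log2 change 0.43 ± 0.10, adjusted p 0.0231). The call was lost without old library 4 or 5 or without young library 1, 2, 3 or 4 (at most 0.0766), and without old libraries 3 and 5 the change was 0.47 (0.0709). Sqstm1, which encodes an autophagy receptor, was the 1 called gene among 33 of the NRF2 antioxidant and iron list (3.03%). It was at 380.1, 349, 362, 340.2 and 389 CPM in young and 452, 449, 479.7, 523 and 487 CPM in old libraries. All old libraries lay above all young ones (log2 change 0.39 ± 0.08, adjusted p 0.00972, at most 0.0446 without any single library; 0.0739 without old libraries 3 and 5). Mgll, the gene of monoacylglycerol lipase, and Fabp4 were the 2 called among 34 genes of lipid handling (5.88%). Mgll averaged 124 ± 11.8 and 182 ± 25.8 CPM (SD, n = 5 each; log2 change 0.55 ± 0.12, adjusted p 0.0197), lost without old library 3 or 4 or young library 2, 3 or 4 (at most 0.0652) and without old libraries 3 and 5 (0.0809).

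A further set of genes rose with no overlap and kept its call without any single library. Clec1a, a C-type lectin receptor gene (chromosome 6, 129424772 to 129452000), was at 7.71, 11.04, 6.48, 4.57 and 10.4 CPM in young and 22.3, 26.5, 19.2, 20.3 and 24.7 CPM in old libraries, a narrow spread in each group (log2 change 1.48 ± 0.21, adjusted p 9.79e-04). Plpp3, an enzyme gene of lysophosphatidic acid breakdown (chromosome 4, 105157347 to 105232764), was at 8.53, 11.3, 17.1, 9.99 and 13.2 CPM in young and 42.6, 28.6, 36.2, 35.4 and 36.7 CPM in old libraries (1.56 ± 0.25, adjusted p 0.00193). Osbpl3, a lipid transfer protein gene, was at 13.4, 16.4, 23.1, 8.71 and 16.05 CPM in young and 39.8, 27.3, 35.3, 72.3 and 39.2 CPM in old libraries, the most in old library 4 (1.44 ± 0.28, adjusted p 0.0103). Bmpr1a, a receptor gene for bone morphogenetic proteins, was nearly absent in young libraries with 0.492, 0, 1.53, 2.14 and 1.88 CPM and low in old libraries with 9.40, 8.90, 7.73, 7.23 and 12.7 CPM (2.85 ± 0.43, adjusted p 9.79e-04). These 4 were also called without old libraries 3 and 5 (adjusted p 0.00722, 0.0201, 0.0359 and 0.0119). Plpp3 was not called in a fit of all 39 libraries (0.0915).

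Slpi and Ccnd2 kept their calls without any single library but not without old libraries 3 and 5. Slpi, which encodes an inhibitor of neutrophil proteases, was at 69.7, 45.1, 71.6, 32.6 and 70.0 CPM in young and 110.1, 82.5, 215, 162 and 187 CPM in old libraries (log2 change 1.38 ± 0.26, adjusted p 0.00912; 0.129 without these 2). Ccnd2, the gene of cyclin D2, was at 4.75, 7.57, 10.8, 11.1 and 7.81 CPM in young and 15.7, 20.8, 61.2, 13.9 and 54.7 CPM in old libraries (1.98 ± 0.38, adjusted p 0.00912; 0.99 and 0.215 without them). Cd274, an immune checkpoint ligand gene, went from 217 ± 11.3 to 315 ± 50.5 CPM (SD, n = 5 each) without overlap (0.53 ± 0.11, adjusted p 0.0144) and was lost without old library 5 (0.0571) or old libraries 3 and 5 (0.155). Gadd45a, a growth-arrest gene, and Gdf15 were the 2 called among 31 senescence and p53 genes (6.45%, beside 1.16% of all genes tested), whose median was 0.37 (0.18 without old libraries 3 and 5). Gadd45a averaged 12.2 ± 1.40 and 22.7 ± 3.04 CPM without overlap (0.89 ± 0.21, adjusted p 0.0256), lost without old library 3, 4 or 5 or young library 1, 3, 4 or 5 (at most 0.0908; 0.14 without old libraries 3 and 5). Cdkn1a, the cell cycle inhibitor p21, was at 126, 121, 110.5, 111 and 115 CPM in young and 136, 155, 238, 117 and 255 CPM in old libraries and was not called (0.63 ± 0.17, adjusted p 0.0674). Per2, a clock gene, went from 15.5 ± 4.48 to 28.2 ± 7.06 CPM (0.86 ± 0.21, adjusted p 0.0375) and was called together with Bhlhe41 among 19 clock genes (10.5%). The call of Per2 was lost without old library 3 or 5 or young library 1, 2 or 3 (at most 0.138, and 0.376 without old libraries 3 and 5).

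No gene was called by edgeR in the lists of the unfolded protein response (29 tested), cytosolic heat shock proteins (22), proteasome (38), type I interferon-stimulated genes (44), DNA replication and mitosis (55), sterol and fatty acid synthesis (35), glycolysis and hypoxia (35), cytosolic ribosomal proteins (82), nuclear genes of oxidative phosphorylation (76) and mitochondrially encoded genes (7). Small shifts shared by most members stood behind some of these counts. Replication and mitosis genes had a log2 change below 0 in 49 of 55 with a median of -0.21, and 2 of them had an unadjusted p under 0.05. Ribosomal protein genes were below 0 in 73 of 82 (median -0.10, 13 with an unadjusted p under 0.05) and heat shock genes above 0 in 20 of 22 (median 0.21, 8 with an unadjusted p under 0.05). Over all genes tested, 4.78% had such a p in the downward and 7.91% in the upward direction. The share among replication and mitosis genes was not above this. Without old libraries 3 and 5 the median of the replication and mitosis list was 0.02 and that of the heat shock list 0.05, while that of the ribosomal list was -0.13.

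**Figure D4:**
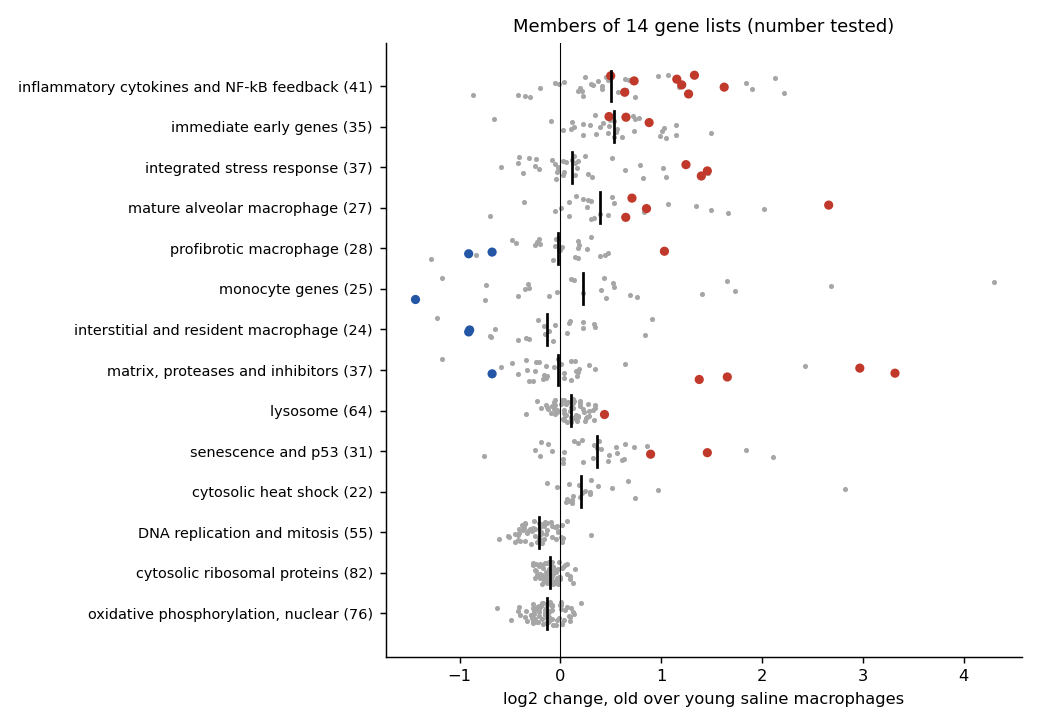
Log2 change between old and young saline macrophages for the members of 14 gene lists, with the number tested in brackets. Each point is a gene, red if called higher and blue if called lower, and the black bar is the list's median, such as 0.50 for inflammatory genes and -0.21 for replication and mitosis genes.

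RNA of B cells and plasma cells was higher in old libraries. The summed CPM of 20 marker genes was 29.98, 12.3, 20.3, 12.9 and 11.9 in young and 105, 133, 181, 31.6 and 429 in old libraries, so every old library exceeded every young one and old library 5 held the most. A two-sided exact permutation test gave p = 0.00794, the smallest that 5 against 5 libraries allow, and 0.0397 after adjustment over 10 marker lists. Of 15 B and plasma cell markers tested as genes, 6 were called higher (40%, beside 0.937% of all genes tested). Of 8 tested genes annotated as immunoglobulin, 5 were called and all 8 had a log2 change above 0. Genes near 0 in young libraries could pass the filter on low counts only through old libraries. The direction among the tested genes was therefore partly set by the filter, and these counts are no independent evidence of a rise. The marker sum uses all 20 members without this filter. Ighm, the heavy chain of immunoglobulin M, was at 24.4, 3.21, 10.5, 4.43 and 5.03 CPM in young and 58.6, 73.6, 95.1, 8.20 and 277 CPM in old libraries (adjusted p 0.00705). Igkc, the kappa light chain constant region, was at 3.61, 0.898, 1.53, 1.71 and 0.969 and at 22.2, 30.3, 30.8, 5.98 and 102 CPM (adjusted p 9.79e-04). Cd79a, a part of the B cell receptor, ranged from 0 to 1.18 CPM in young and from 1.40 to 6.35 CPM in old libraries, and Jchain, which joins immunoglobulin chains in plasma cells, from 0 to 0.428 and from 0 to 20.7 CPM. Igkv3-2, a kappa variable segment, had no count in the 5 young libraries and in old library 4 and 308 counts in the old group, at least 99.8-fold higher when the young group is set to the limit of 3 counts in all. Igkc, Jchain and Igkv3-2 stayed called without old libraries 3 and 5 (adjusted p 0.00722, 0.0359 and 0.0376), Ighm and Cd79a did not (0.0712 and 0.17). Each of the former genes missed the threshold in 1 alternative setting of the processing (adjusted p 0.186 for Igkc, 0.41 for Jchain and 0.448 for Igkv3-2). Without any 1 of the 10 libraries the adjusted p of the marker sum was 0.0529 to 0.0794. With 4 against 5 libraries the exact test cannot give a p under 0.0159, and the adjusted p can pass 0.05 only if 4 or more of the 10 lists reach it, so these values say nothing of stability. Variable segments resemble each other, so counts of single segments are uncertain. In bulk samples, fewer cells of a type and less RNA per cell cannot be told apart.

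The summed markers of other non-macrophage cells did not pass the test after adjustment. T and NK cell markers summed to 97.4 to 129 CPM in young and 82.0 to 260.2 CPM in old libraries (adjusted p 0.273 by the exact permutation test), mostly through Cd2 and Il7r, while Cd3e was at most 1.89 CPM in young and 2.45 CPM in old libraries. The highest old sums of T and NK cell markers, 260.2 and 237 CPM, were those of libraries 3 and 5. All 13 T and NK cell markers tested as genes had a log2 change above 0 (median 1.73, none called), as did 7 of 7 endothelial markers (median 1.39, none called). A further 3 T and NK cell and 6 endothelial markers did not pass the filter on low counts. Genes near 0 in young libraries pass it only through old ones, so these counts are no independent evidence of a rise. Some lymphocyte genes outside the marker lists were called higher by edgeR at low CPM. They were picked from the called rises, so they are no test of lymphocyte genes as a set. Among them were Cd28 (log2 change 4.28, adjusted p 0.00999), Il2rb (4.17, 0.0144), Cd8a (4.06, 0.0423), Cd5 (2.97, 0.0476) and Lat (1.78, 0.0476). Cd28 averaged 0.0727 CPM in young and 2.38 CPM in old libraries, and Lat 1.24 and 4.40 CPM. Alveolar and airway epithelium summed to 102 to 179 and 75.7 to 109.7 CPM (adjusted p 0.0529) and neutrophil markers to 81.9 to 122 and 89.1 to 156 CPM (adjusted p 0.238). Cdh1 (means 60.6 and 36.5 CPM) and Hopx (29.5 and 22.4 CPM) were the larger part of the epithelial sum. Eosinophil and mast cell markers summed to 76.7 to 88.7 CPM in young and 78.6 to 216 CPM in old libraries (adjusted p 0.238). Nearly all came from Siglecf and Ear1, which alveolar macrophages also express. The other markers were low. Ccr3 and Kit averaged 0.0249 and 0.289 CPM in young and 0.468 and 1.01 CPM in old libraries, while Cpa3 averaged 0.134 and 0.0628 CPM. Prg2 and Ms4a2 had counts only in old libraries and Mcpt4 only in young libraries. Epx and Il5ra were at 0 in all old libraries and Prg3, Tpsab1 and Tpsb2 at 0 in all 10. The macrophage identity list summed to 41701 to 46791 CPM in young and 51197 to 65860 CPM in old libraries (adjusted p 0.0397), of which Lyz2 was the larger part. The part of RNA from other cells in the changes above was not tested.

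The same age contrast was made in 9 libraries of ISRIB-treated mice, none of which entered the saline contrast, though all 19 shared 1 estimate of the spread. There 114 genes were called (0.937%), 54 higher (0.444%) and 60 lower (0.493%). Of the 141 genes called with saline, 135 had the same sign with ISRIB (95.7%, beside 61.3% of all genes tested), and 40 were called in the same direction, which is 28.4% of the saline calls and 35.1% of the ISRIB calls. None was called in the opposite direction. Over all genes tested, the ISRIB libraries did not overlap in 2.71% with old higher and 2.16% with young higher. The 27 lower genes all had the same sign, with medians of -0.77 with saline and -0.79 with ISRIB. The 114 higher genes had medians of 1.04 with saline and 0.52 with ISRIB, and 108 shared the sign. All 141 genes were chosen by their calls with saline, which tends to enlarge the saline medians. These medians therefore do not compare the treatments.

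Plxdc2 averaged 116 ± 10.6 CPM (SD, n = 4) in young and 22.7 ± 5.41 CPM (SD, n = 5) in old ISRIB mice, a log2 change of -2.35 ± 0.24 (adjusted p 6.05e-06). Hpgd (-1.31 ± 0.22, adjusted p 0.003), Fn1 (-0.87 ± 0.14, adjusted p 0.0016), Fcrls (-0.70 ± 0.15, adjusted p 0.0218), Cx3cr1 (-0.82 ± 0.20, adjusted p 0.0401), Olfm1 (-0.84 ± 0.17, adjusted p 0.0148) and Gpr171 (-1.63 ± 0.31, adjusted p 0.00849) were also lower. Cspg4, which missed the threshold with saline, was called with ISRIB (171 ± 57.9 to 64.8 ± 18.1 CPM, log2 change -1.39 ± 0.24, adjusted p 0.00378). Among the rises, Clec1a (1.80 ± 0.24, adjusted p 1.42e-04), Bmpr1a (3.11 ± 0.47, adjusted p 8.55e-04), Osbpl3 (1.36 ± 0.30, adjusted p 0.0233), Ccnd2 (2.48 ± 0.40, adjusted p 0.00171), Col4a2 (3.53 ± 0.40, adjusted p 2.33e-05), Col4a1 (3.09 ± 0.37, adjusted p 3.57e-05), Krt79 (2.79 ± 0.56, adjusted p 0.0123), Siglecf (0.78 ± 0.18, adjusted p 0.0264) and Ccl6 (0.68 ± 0.14, adjusted p 0.0148) were called with ISRIB too. B and plasma cell markers summed to 13.5 to 31.9 CPM in young and 189.8 to 658 CPM in old ISRIB libraries.

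Several feedback and chemokine genes were not called by age with ISRIB. Tnfaip3 averaged 108 ± 41.0 CPM (SD, n = 4) in young and 106 ± 26.2 CPM (SD, n = 5) in old ISRIB mice (log2 change -0.03 ± 0.21, adjusted p 0.974), Cxcl2 99.5 ± 72.1 and 90.2 ± 36.2 CPM (-0.15 ± 0.36, adjusted p 0.923) and Ccrl2 105 ± 63.3 and 93.1 ± 31.5 CPM (-0.18 ± 0.29, adjusted p 0.873). Ppp1r15a averaged 23.8 ± 9.56 and 31.6 ± 2.85 CPM (0.40 ± 0.19, adjusted p 0.41) and Nfkbia 111 ± 18.1 and 125 ± 29.7 CPM (0.16 ± 0.16, adjusted p 0.761). Il1a (log2 change 0.82, adjusted p 0.0851), Tnfaip2 (0.43, 0.0649), Ccl3 (0.55, 0.444) and Nfkbiz (0.08, 0.949) had changes above 0 but were not called, while Ccl6 was called as given above. Whether the age effect differed between treatments was tested as an interaction, and no gene passed: the smallest adjusted p was 0.717, and 621 genes (5.1%) had an unadjusted p under 0.05. That test called no gene with DESeq2 or limma voom either, but 33 with no filter on low counts, 1 with a replicate block and 1 without young ISRIB library 3. For Tnfaip3 the unadjusted p of the interaction was 6.3e-05, for Ccrl2 8.26e-04 and for Cxcl2 0.00157. In the main fit, with the filter, all libraries and no replicate block, a difference between treatments was therefore not shown for any gene. Equality was not shown either.

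**Figure D5:**
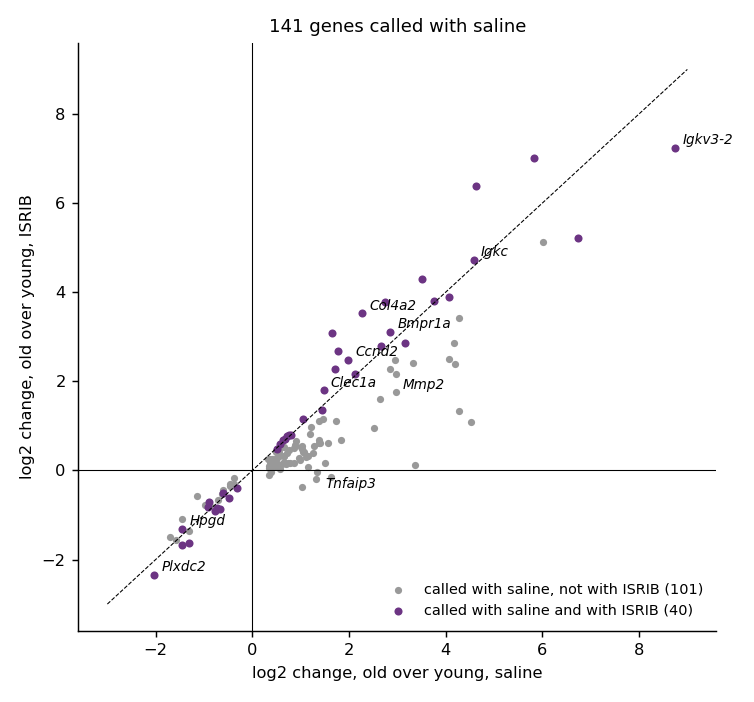
Log2 change between old and young macrophages in ISRIB-treated mice (vertical axis) against that in saline-treated mice (horizontal axis) for the 141 genes called with saline. Purple points are the 40 genes called in both and the dashed line marks equal changes; Plxdc2 and Hpgd lie near the line and Tnfaip3 near 0 on the vertical axis.

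In naive lung monocytes of saline-treated mice, 3 genes were called by age (0.0247% of 12170 tested), all higher in old mice, and 1072 (8.81%) had an unadjusted p under 0.05. Of the 141 genes called in macrophages, 117 were tested in monocytes and 57 had the same sign. The 141 genes were chosen by their calls in macrophages, and the share with the same sign over all genes was not computed. The medians were 0.0031 for the 95 higher and 0.13 for the 22 lower genes, and 1 was called in both cell types: Bmpr1a, which averaged 0.0633 CPM in young and 4.24 CPM in old monocytes (log2 change 5.59 ± 0.91, adjusted p 0.014). Macrophages came from bleomycin-treated and monocytes from naive mice, so cell type and injury cannot be told apart. The difference between the 2 age effects was called for 34 of 13587 genes (0.25%; 10.9% at an unadjusted p under 0.05), 19 of them among the 141. The 141 were called in the same macrophage libraries that enter this test, which favours such an overlap. Ccr2 fell with age in macrophages while it averaged 1779 CPM in young and 2724 CPM in old monocytes (0.61 ± 0.25, adjusted p 0.441), and the difference of the 2 changes was -2.04 (adjusted p 0.0152). Cxcl2 (difference 2.54, adjusted p 0.0203), Ccl3 (2.11, adjusted p 0.0074), Nfkbia (1.31, adjusted p 0.0149), Ccrl2 (1.82, adjusted p 0.0368) and Col4a2 (3.95, adjusted p 4.58e-04) had the larger rise in macrophages, and their monocyte changes ran from -1.66 for Col4a2 to -0.48 for Ccrl2, none called. Tnfaip3 had a difference of 1.47 that missed the threshold (adjusted p 0.0757).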

How the data were processed

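Old and young lung macrophages were compared by RNA-seq. The labels' protocols give polyA selection, NEBNext Ultra libraries and a NextSeq 500. Per the submitters' processing notes, the authors used bcl2fastq 2.19.1, FastQC, Trimmomatic 0.36, STAR 2.6.0 and HTSeq 0.11.2 with build mm10. For the annotation and the strand setting of counting, nothing is given in the sources used here. The deposited values are raw counts per gene, with no normalization by the authors, and 42546 of 43430 gene IDs matched a symbol.

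The 19 macrophage libraries, grouped by the labels, were fitted together with 4 group means in edgeR 4.0.16 (R 4.3.3; TMM factors, filterByExpr with a minimum count of 10 and total of 15, quasi-likelihood test, Benjamini-Hochberg adjustment, threshold 0.05). Monocytes had a fit of 20 libraries, and the difference of age effects between cell types one of all 39. DESeq2 1.42.0, limma voom 3.58.1, other filters and scalings, offsets for GC content and length, and leaving out libraries were alternatives. Marker sums are CPM over library totals, compared by two-sided exact permutation over 252 splits. CPM precision is limited by totals of 6069978 to 16056708 counts. Pairs of libraries within a group differed by 7.26 to 28.5 chi-square per degree of freedom, so none was a duplicate. The tests were tested on simulated data.

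Genes named are the 15 highest rises and 15 largest falls (called, no overlap, mean of 5 CPM or more in the higher group), up to 6 called members of each list by p, up to 3 uncalled members of lists with fewer than 3 calls, core profibrotic and stress genes whatever their values, top marker genes, and genes called with both treatments; not all are printed. Members and lists were chosen with earlier results of these data known.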

Additional observations from a re-analysis of the deposited data

Results flagged for a closer look

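Single libraries stood apart from the other 4 of their group in 10 of 142 groups of 5 examined (Dixon's test, 0.71 of the group's range). Chance gives this in about 1 in 20 groups. Among old libraries, Igkc reached 101.9 CPM in library 5 (others 5.98 to 30.8), Mmp2 222 CPM in library 4 (others 15.9 to 46.8), Osbpl3 72.3 CPM in library 4 (others 27.3 to 39.8) and Arg1 268 CPM in library 2 (others 14.4 to 75.8). Among young libraries, Fn1 was at 18334 CPM in library 4 (others 11759 to 13511), Nfkbia at 119.8 CPM in library 5 (others 84.9 to 91.8) and Arg1 at 646 CPM in library 4 (others 65.9 to 167). The summed markers of epithelium were at 179 CPM in young library 4 (others 102 to 119), those of red blood cells at 1.29 CPM in young library 2 (others 0 to 0.374) and those of macrophage identity at 65860 CPM in old library 4 (others 51197 to 54866).

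The age effect differed between saline macrophages and saline monocytes, by edgeR's test of the difference itself, for 10 of the genes named. All 10 were called by age in the same saline macrophage libraries that enter this test, which favours a difference. The difference of log2 changes was 3.95 for Col4a2 (adjusted p 4.58e-04), 3.68 for Ighm (0.00955), 2.54 for Cxcl2 (0.0203), 2.50 for Col4a1 (0.00972), 2.11 for Ccl3 (0.0074), 1.82 for Ccrl2 (0.0368) and 1.31 for Nfkbia (0.0149). It was -1.22 for Tiam1 (adjusted p 0.0209), -1.26 for Olfm1 (0.0172) and -2.04 for Ccr2 (0.0152). Macrophages came from bleomycin-treated and monocytes from naive mice, so cell type and injury cannot be told apart.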

How the results depend on the processing

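Calls between old and young saline macrophages numbered 294 with DESeq2, 468 with no filter on low counts, 60 with all 39 libraries in the fit and 28 without old libraries 3 and 5, a choice made after seeing the data. Leaving out 1 library gave 47 to 289 calls. The ISRIB contrast gave 260 calls with DESeq2, 405 with no filter, 228 without old saline libraries 3 and 5, which alters the shared estimate of the spread, and 33 to 161 without 1 library. The difference between treatments gave 33 calls with no filter, 1 with a replicate block and 0 to 1 without 1 library. Monocytes gave 46 calls with DESeq2, 6 with GC and length offsets, 1 with limma voom, 15 with no filter, 7 with a replicate block and 0 to 8 without 1 library. The difference between cell types gave 141 calls with DESeq2, 60 with GC and length offsets, 22 with limma voom, 76 with no filter and 8 to 71 without 1 library. The cause of these shifts was not tested.

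The change of Spp1 turned to 0.045 without old libraries 3 and 5. The dendritic cell marker sum (old minus young) ran from -2.90 (without young library 3) to 5.55 CPM and was -0.929 CPM without old library 2. That of B and plasma cells ran from 95.1 to 195 CPM and that of macrophage identity from 8448 to 12114 CPM without 1 library, where the adjusted p of both was 0.0529 to 0.0794, values that 4 against 5 libraries fix by design (smallest exact p 0.0159) and that say nothing of stability.

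Labels give groups the same replicate numbers, but deviations of same-numbered old and young saline libraries correlated at only 0.0038, 0.0647, 0.033, -0.0272 and 0.0794, and 4 of 10 libraries correlated best with their own number, so the numbers were not taken as pairs. With the replicate block 180 genes were called between saline groups.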
